A study of Mus musculus with 21 samples.

Results

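A set of 9 genes that mark the interstitial stroma of the developing kidney were followed through culture of sorted mouse nephron progenitors with and without BIO, a small molecule that inhibits the kinase GSK3 and so turns on canonical Wnt signalling. The members are Foxd1, Pdgfra, Pdgfrb, Tbx18, Meis1, Penk, Smoc2, Alx1 and Postn, listed by name as known stroma genes, and all 9 were measured, among 18193 genes in all. The list was made with earlier results of these data known, so counts and medians over it are descriptions. The 9 genes are covered by 17 of the 45101 probe sets on each array. The question put to them was whether Six2-marked progenitors drift towards a stroma-like state in culture, and whether BIO controls that drift.

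The renal interstitium is the mesenchyme that surrounds the cap of nephron progenitors, the nephrons and the collecting ducts. Most of it descends from cells that express the forkhead factor Foxd1, while the nephrons descend from cap cells that express Six2, and the boundary between the lineages is set early in kidney development. Stromal cells later give rise to pericytes, mesangial cells, smooth muscle of the vessels and fibroblasts, and they carry the PDGF receptors through which ligands from neighbouring cells act on their growth and survival.

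Cells were taken by fluorescence sorting from E16.5 kidneys of mice that carry a Six2GFPcre BAC transgene on a mixed background, which all 7 groups share. Each sample held 40000 cells. The groups had 3 arrays each. They were fresh cells, dispersed cells after 24 h with DMSO or with 4 µM BIO, aggregates after 24 h with DMSO or with BIO, and aggregates that had BIO for 24 h and then either DMSO (BIO withdrawn) or BIO again (BIO kept) until 48 h. Aggregates were made by centrifugation and the medium held 10% serum. The groups at 48 h had the same first day in BIO and differed in BIO on the second, so their comparison is matched for time. The labels give no group in DMSO for 48 h, so against 24 h or fresh cells time and BIO history cannot be separated. They call the arrays biological replicates without saying which animals or cultures they came from. The p-values therefore cover the spread between the arrays alone, and that may be technical. In a population profiled in bulk, fewer cells of a type and less RNA per cell cannot be told apart.

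Six2, the gene that drives the sorting label, stood at 8862 ± 365 in fresh cells (mean signal ± SD, n = 3) and lower means in every cultured group. Axin2, a feedback target of Wnt signalling, had means of 259.5 in dispersed and 351.4 in aggregated DMSO cells against 4801 and 3529 with BIO. Lists of endothelial and erythroid genes stayed at summed signals of at most 1022 and 379.8 on any array. The list of 7 leukocyte genes reached 1554 in fresh cells. Of 11 measured genes of mural cells and smooth muscle, which also belong to stromal derivatives, 9 lay above background in fresh cells and 10 in both DMSO groups. On the arrays themselves, 76.0 to 79.6% of genes lay above background, and the mean correlation of an array with the others in its group was 0.976 to 0.992. The 3′ beta-actin control probe set was dimmer on the 3 arrays of BIO aggregates at 24 h (2895 to 5479) than on the other arrays (6634 to 12740). With that signal as a covariate, 15 of 126 member results lost their call and 1 called result turned its sign. The signal differs with the group, so its effect cannot be told apart from that of BIO in aggregates. The ratio of the 3′ to the 5′ Gapdh control probe set differed by group too. Its means ran from 7.87 with BIO kept to 13.9 in DMSO aggregates, with 9.94 in fresh cells. With this Gapdh ratio as a covariate, 15 of 126 member results lost their call. Quantile normalization left the median gene 0.18 log2 higher in BIO aggregates than in fresh cells, against 0.04 on the scale as deposited.

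**Figure D1:**
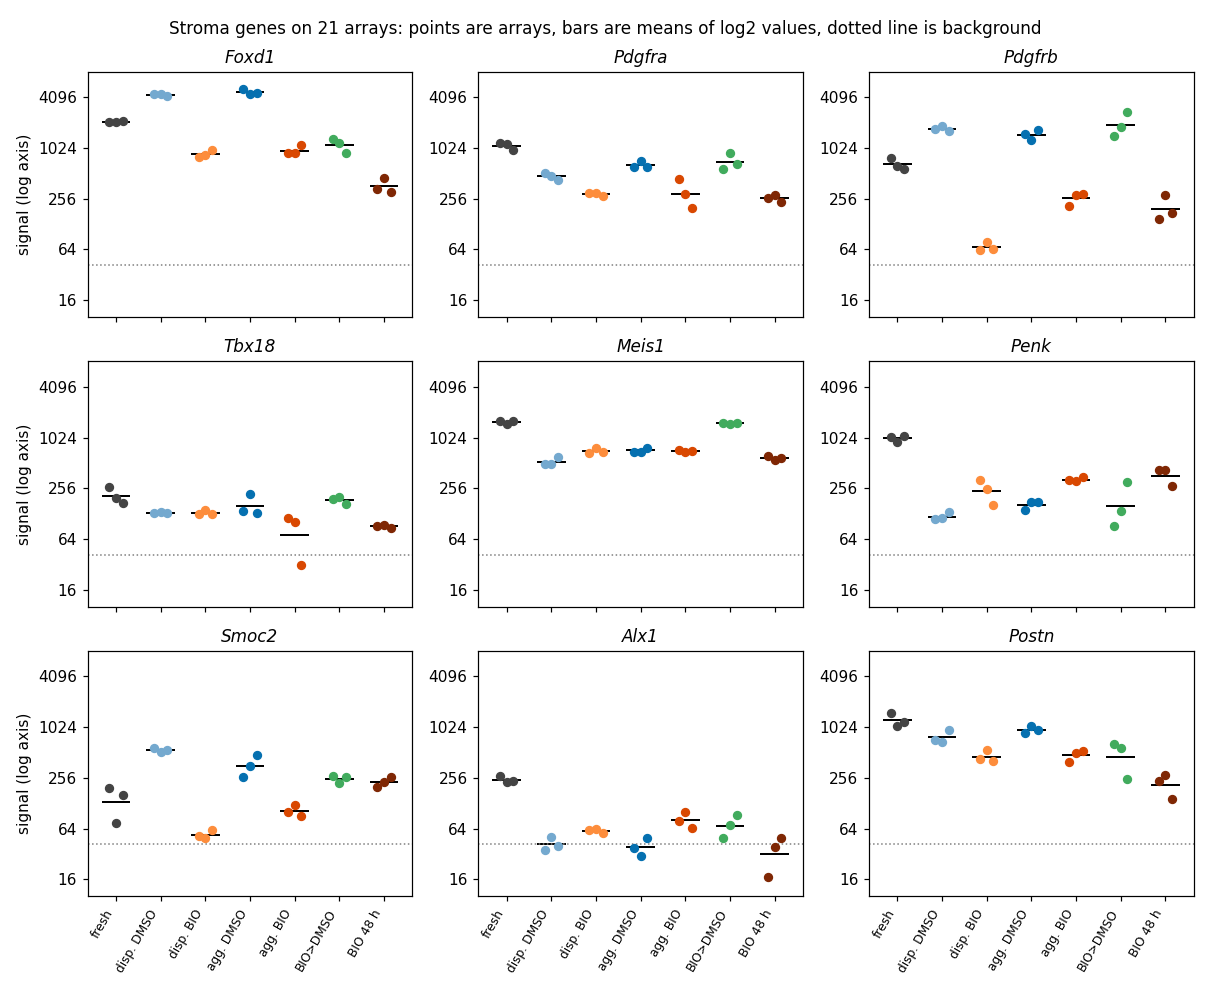
Signal of the 9 stroma genes on 21 arrays, on a log axis that is the same in every panel, by group (disp., dispersed; agg., aggregated; BIO>DMSO, BIO withdrawn at 24 h). Points are arrays, bars are means of the log2 values over 3 arrays, and the dotted line is the background signal of 41.8. Foxd1 and Smoc2 were highest in groups cultured with DMSO alone and Pdgfrb after withdrawal of BIO, whereas Penk and Alx1 were highest in fresh cells.

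A day in DMSO split the 9 genes. Foxd1, Pdgfrb and Smoc2 rose against fresh cells, Meis1, Penk and Alx1 fell, and Tbx18 and Postn did not pass the test, with the same calls in aggregates and in dispersed cells. Pdgfra fell on its brightest probe set, the one counted here, and rose on another. So 3 members were higher and 4 lower in each culture format, out of 9, with the direction of Pdgfra among the 4 not settled. Of all genes, 32.9% changed in aggregates and 33.2% in dispersed cells. Those that rose made up 18.4% and 15.0% of all genes. The median change of the members was -0.40 in aggregates and -0.67 in dispersed cells (log2), where the median over all genes was 0.10 and -0.03. The 9 genes as a group therefore did not move in one direction in DMSO culture. Both comparisons use the same 3 fresh arrays. Changes are log2 differences ± SE, fitted by limma (3 arrays in each group), and adjusted p-values are from limma with Benjamini-Hochberg adjustment over all genes.

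Foxd1 is the forkhead transcription factor that defines the stromal progenitor and is needed there for normal nephron differentiation. Its signal was 2084, 2097 and 2126 in fresh cells. It was 5060, 4510 and 4635 in DMSO aggregates, and 4437, 4523 and 4236 in dispersed DMSO cells. All 6 cultured arrays lay above all fresh arrays. The rise was 1.17 ± 0.15 in aggregates (2.25-fold, adjusted p = 1.23e-05 by limma) and 1.06 ± 0.15 in dispersed cells (2.09-fold, adjusted p = 2.79e-05).

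The sequence just before the start of Foxd1 is shown because this gene answered both culture and BIO. It is taken from RefSeq on GRCm38.p6 and runs on the plus strand over chr13:98353995-98354244, the 250 bases that end next to the gene, which lies at chr13:98354245-98356705. Capitals mark a match to the core TGACAG bound by MEIS factors, which begins 50 bases before the gene.
Foxd1: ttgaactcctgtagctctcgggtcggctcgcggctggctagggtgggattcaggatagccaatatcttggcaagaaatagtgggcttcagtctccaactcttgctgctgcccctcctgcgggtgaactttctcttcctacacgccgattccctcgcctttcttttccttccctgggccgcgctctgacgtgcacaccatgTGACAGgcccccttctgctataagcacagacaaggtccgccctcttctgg
The windows of Foxd1, Pdgfra, Tbx18, Meis1 and Postn were searched on both strands for 6 motifs, and 5 of 9 members were matched in the table (Pdgfrb, Penk, Smoc2 and Alx1 were not). The motifs were TGACAG, the TCF/LEF core CTTTGA, the TEAD core CATTCC, the forkhead core TGTTTA, the AP-1 site TGANTCA and the CArG box by name. This one match was the only one in these windows. By RefSeq's gene spans, the windows of Pdgfra and Meis1 and one of the Postn windows lie inside the gene, next to a start further downstream, so the bases before the outermost start of Pdgfra and Meis1 were not searched. TGACAG stands in 15.9% of all 32851 windows of 250 bases, CTTTGA in 13.8%, CATTCC in 12.6%, TGTTTA in 12.0%, TGANTCA in 6.7% and the CArG box in 1.5%.

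Meis1, a homeodomain factor of the TALE class that is broadly expressed in renal stroma, went the other way. Fresh arrays read 1618, 1469 and 1626. DMSO aggregates read 699, 695 and 775, and dispersed DMSO cells 497, 497 and 597. Every cultured array was below every fresh array. The fall was -1.12 ± 0.09 in aggregates (2.17-fold, limma adjusted p = 6.72e-08) and -1.57 ± 0.09 in dispersed cells (2.97-fold, adjusted p = 1.11e-09). A second probe set (1443260_at) fell as well, by 3.13-fold in aggregates and 2.20-fold in dispersed cells. The third (1459423_at) did not pass in aggregates (-0.46, adjusted p = 0.215 over all probe sets, limma) and was lower in dispersed cells (-0.83, adjusted p = 0.0269), with overlap in both.

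Alx1 is a paired-type homeodomain factor of mesenchyme, better known from the face. Its signal was 271, 228 and 232 in fresh cells. It was 38, 30 and 50 in DMSO aggregates and 36, 51 and 39 in dispersed DMSO cells, where the group means lay near the background of 41.8. Fresh cells were thus at least 5.38-fold higher than aggregates (log2 -2.63 ± 0.32, limma adjusted p = 7.68e-06), and at least 5.34-fold higher than dispersed cells (-2.52 ± 0.32, adjusted p = 1.03e-05). At-least folds raise each array below background to it.

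Tbx18, a T-box factor of the ureteral mesenchyme and some stromal cells, read 268, 198 and 170 in fresh cells and 136, 221 and 131 in DMSO aggregates. The groups overlapped and the difference of -0.40 ± 0.34 did not pass (limma adjusted p = 0.417). Dispersed DMSO cells read 130, 133 and 130, below all fresh arrays, with a difference of -0.67 ± 0.34 that also did not pass (adjusted p = 0.162).

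Both PDGF receptors are surface tyrosine kinases of mesenchymal cells. Pdgfrb, the receptor for PDGF-B and PDGF-D that pericytes and mesangial cells need, read 769, 624 and 576 in fresh cells. It read 1485, 1273 and 1689 in DMSO aggregates and 1724, 1879 and 1620 in dispersed DMSO cells. No cultured array overlapped the fresh ones, and the rises were 1.18 ± 0.24 (2.26-fold, limma adjusted p = 0.00135) and 1.41 ± 0.24 (2.66-fold, adjusted p = 0.000245). Its dimmer probe set 1417148_at, which was below background in fresh cells, rose too, by at least 1.42-fold and at least 2.14-fold.

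Pdgfra, the receptor for PDGF-A and PDGF-C, depends on the probe set. The brightest one (1421917_at) read 1165, 1134 and 961 in fresh cells, 616, 707 and 613 in DMSO aggregates, and 510, 481 and 431 in dispersed DMSO cells. It fell by 0.75 ± 0.21 (1.68-fold, limma adjusted p = 0.0124) and by 1.19 ± 0.21 (2.29-fold, adjusted p = 0.000328). With the Gapdh ratio as a covariate the change in aggregates was -0.83 and did not pass (adjusted p = 0.0696, limma). The probe set 1438946_at read 136, 126 and 113 in fresh cells, 214, 238 and 225 in DMSO aggregates and 152, 225 and 163 in dispersed DMSO cells. It rose, by 0.85 ± 0.18 (adjusted p = 0.00173 over all probe sets, limma) and 0.50 ± 0.18 (adjusted p = 0.0454). Neither set of cultured arrays overlapped the fresh arrays on either probe set, so the direction of Pdgfra in DMSO is not settled, and the mean of its 3 probe sets changed by 0.03 in aggregates (adjusted p = 0.947). The third probe set (1421916_at) had a mean above background in the withdrawn group alone and passed in no comparison. Which part of the transcript each probe set reads was not analysed here.

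**Figure D2:**
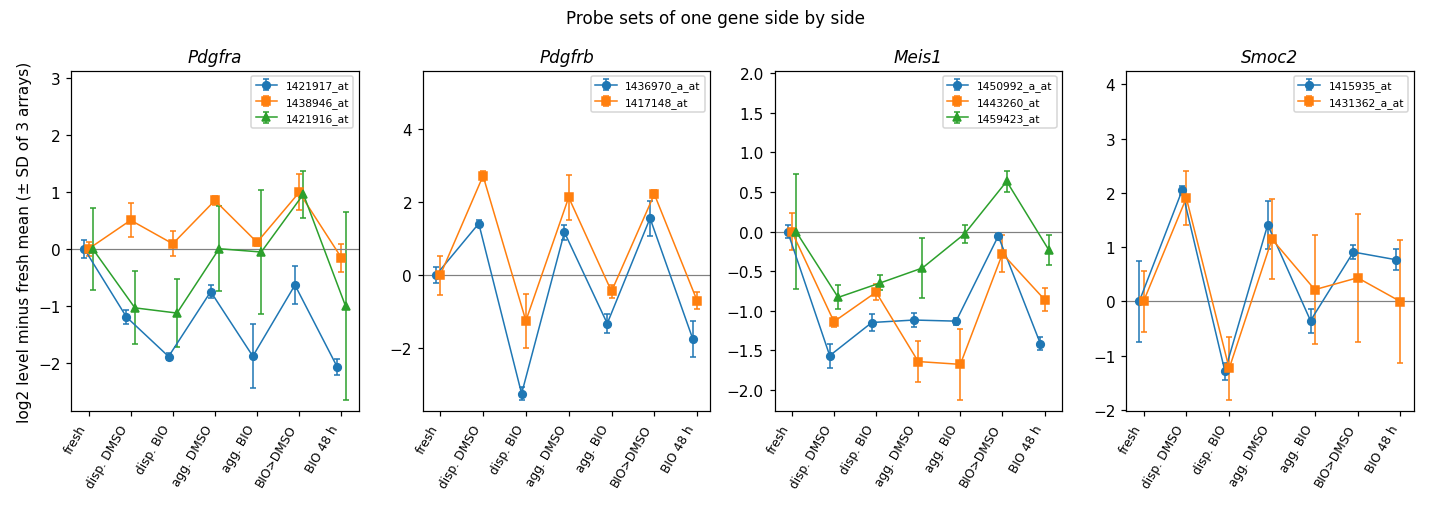
Probe sets of the 4 members with more than 1 probe set past the test somewhere, as log2 level minus that probe set's own fresh mean, by group. Points are means and error bars SDs of 3 arrays. The Pdgfra probe sets 1421917_at and 1438946_at lie on opposite sides of the fresh level in both DMSO groups, by -0.75 and 0.85 in aggregates. Both Pdgfrb probe sets were higher in DMSO than in fresh cells and lower with BIO than with DMSO at 24 h. The dimmer one, 1417148_at, was below background in fresh cells and wherever BIO was present to the end. Its distance from the fresh level in those groups is therefore not a measured change.

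The secreted members also split. Smoc2, a matricellular protein that modulates growth factor signalling, read 196, 74 and 161 in fresh cells, 260, 358 and 479 in DMSO aggregates, and 586, 516 and 551 in dispersed DMSO cells. All cultured arrays were higher than all fresh ones. The rises were 1.41 ± 0.28 (2.66-fold, limma adjusted p = 0.000897) and 2.04 ± 0.28 (4.12-fold, adjusted p = 2.45e-05). In a fit to the 6 arrays of fresh cells and DMSO aggregates alone, the rise in aggregates had an adjusted p of 0.0636.

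Penk, which encodes the precursor of the enkephalin opioid peptides, had the deepest fall of the members with measurable signal on both sides. Fresh arrays read 1048, 904 and 1060. DMSO aggregates read 141, 175 and 174 and dispersed DMSO cells 110, 112 and 133, far below the fresh arrays. The falls were -2.62 ± 0.33 (6.13-fold, limma adjusted p = 1.19e-05) and -3.08 ± 0.33 (8.44-fold, adjusted p = 1.77e-06).

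Postn, the matrix protein periostin, read 1504, 1065 and 1184 in fresh cells, 866, 1058 and 952 in DMSO aggregates and 728, 686 and 948 in dispersed DMSO cells. Every cultured array was lower than every fresh array, yet neither difference passed (-0.37 ± 0.30, adjusted p = 0.38, and -0.67 ± 0.30, adjusted p = 0.107, limma). Groups that do not overlap are common here: 45.6% of all genes were so separated between DMSO aggregates and fresh cells.

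Other stroma genes that are not among the 9 split in the same comparison. Of 19 measured in a list of 20, 6 rose, 6 fell and 7 did not pass in DMSO aggregates, with a median of 0.22 against 0.10 over all genes. In dispersed DMSO cells 7 rose and 7 fell. Over all genes 18.4% rose and 14.5% fell in aggregates, and 15.0% rose and 18.3% fell in dispersed cells. Mgp, an inhibitor of matrix calcification, was at least 11.6-fold higher in DMSO aggregates than in fresh cells. Dlk1, a Notch ligand relative, rose 7.66-fold and Cxcl12, a chemokine of stromal cells, 7.02-fold. Cldn11, a tight junction protein, fell at least 15.5-fold.

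Among PDGF ligands, Pdgfb, Pdgfd and Pdgfa rose in DMSO aggregates. Pdgfb went from a mean signal of 56.4 in fresh cells to 729.2 in DMSO aggregates and 742.5 in dispersed DMSO cells (12.7-fold, log2 3.67 ± 0.24, limma adjusted p = 6.3e-09 in aggregates). Pdgfd rose 5.38-fold (2.43 ± 0.60, adjusted p = 0.0049) and Pdgfa by 0.60 ± 0.10. Pdgfc did not pass (-0.08 ± 0.11, adjusted p = 0.624). Of 8 genes in this list, which also holds Pdgfrl and the related receptors Kit, Csf1r and Flt3, 5 rose and 1 fell in aggregates. The shares over all genes there were 18.4% and 14.5%.

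Genes of mural cells and smooth muscle split in DMSO, while their sum went up. The summed signal of the 11 genes was 5327 to 5748 in fresh cells, 20610 to 22860 in DMSO aggregates and 21760 to 22100 in dispersed DMSO cells. Of the 11, 5 rose and 4 fell in aggregates, and 5 rose and 3 fell in dispersed cells. Among all genes 18.4% rose and 14.5% fell in aggregates, and 15.0% rose and 18.3% fell in dispersed cells. Tagln, an actin-binding protein of smooth muscle, rose from a mean of 61.8 to 6477 in aggregates (113-fold), and Acta2, smooth muscle actin, from 2691 to 11099 (4.12-fold). Most of the rise of the sum in aggregates came from Tagln and Acta2. The sum of 13 nephron progenitor genes went down, from 46150 to 47810 in fresh cells to 14780 to 16220 in DMSO aggregates, and 10 of the 13 fell. The part of either list in the changes of the stroma genes was not tested.

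With BIO in place of DMSO, Pdgfrb, Foxd1 and Smoc2 were lower after 24 h in both formats, by more than any other member. In aggregates 6 members were lower, 2 were higher and 1 did not pass, where 30.0% of all genes changed (12.5% lower). In dispersed cells 4 were lower, 2 higher and 3 not past the test, where 28.7% of all genes changed (13.4% lower). The median member changed by -1.13 in aggregates and by -0.69 in dispersed cells, against 0.09 and 0.02 over all genes. BIO was present throughout, so these are differences from DMSO culture. The DMSO arrays here also entered the comparison of DMSO with fresh cells, so the comparisons are not independent of each other.

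Foxd1 read 883, 890 and 1096 in BIO aggregates and 789, 841 and 968 in dispersed BIO cells, below every DMSO and every fresh array. It was 4.97-fold lower than in DMSO aggregates (log2 -2.31 ± 0.15, limma adjusted p = 6.15e-09) and 5.09-fold lower than in dispersed DMSO cells (-2.35 ± 0.15, adjusted p = 4.16e-09). The effects in aggregates and in dispersed cells differed by 0.04 ± 0.21 (adjusted p = 0.973), which does not show that they are equal.

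Meis1 did not follow Foxd1. BIO aggregates read 736, 694 and 716, overlapping the DMSO aggregates, with a difference of -0.01 ± 0.09 (limma adjusted p = 0.93). Dispersed BIO cells read 671, 773 and 681, above all dispersed DMSO arrays, by 0.42 ± 0.09 (1.34-fold, adjusted p = 0.00168). On the mean of the 3 Meis1 probe sets this rise was 0.33 and did not pass (adjusted p = 0.113).

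Alx1 was partly retained with BIO. BIO aggregates read 79, 102 and 66, above all DMSO aggregates, and the fitted difference was 1.06 ± 0.32 (at least 1.80-fold, limma adjusted p = 0.0178). The call was lost without DMSO aggregate replicate 2 (adjusted p = 0.0816) or BIO aggregate replicate 2 (0.0791), and the sign turned to -0.25 with 3′ beta-actin as a covariate (adjusted p = 0.802). Dispersed BIO cells read 61, 63 and 56, above the dispersed DMSO arrays, with 0.52 ± 0.32 that did not pass (adjusted p = 0.26).

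Tbx18 was lower in BIO aggregates, at 114, 102 and 31, the last of these below background. The difference from DMSO aggregates was -1.13 ± 0.34 (2.19-fold, limma adjusted p = 0.0201). It rests on single arrays: without BIO aggregate replicate 3 it was -0.54 (adjusted p = 0.0587) and without DMSO aggregate replicate 2 it was -0.89 (adjusted p = 0.0993). Dispersed BIO cells read 125, 141 and 127, overlapping dispersed DMSO cells, with adjusted p = 0.999.

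Pdgfrb had the largest response to BIO among the members. BIO aggregates read 212, 282 and 293, and dispersed BIO cells 62, 78 and 64, just above background. Both were below all DMSO and all fresh arrays. The fall from DMSO was 5.66-fold in aggregates (log2 -2.50 ± 0.24, limma adjusted p = 8.5e-07) and 25.3-fold in dispersed cells (-4.66 ± 0.24, adjusted p = 5.27e-10). Its second probe set fell by at least 1.42-fold and at least 2.14-fold, from DMSO signals near background.

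Pdgfra read 432, 294 and 199 in BIO aggregates and 303, 298 and 277 in dispersed BIO cells on its brightest probe set. It was lower than in DMSO by 2.19-fold in aggregates (-1.13 ± 0.21, limma adjusted p = 0.000619) and 1.62-fold in dispersed cells (-0.69 ± 0.21, adjusted p = 0.0215), without overlap in either. The second probe set was 1.66-fold lower in BIO aggregates (adjusted p = 0.00609) and did not pass in dispersed cells (adjusted p = 0.117), so the probe sets that diverged in DMSO had the same sign here. The call in dispersed cells was lost without dispersed DMSO replicate 1 (adjusted p = 0.0719) or 2 (0.0568) or dispersed BIO replicate 3 (0.068). On the mean of its 3 probe sets Pdgfra passed in neither format (-0.64, adjusted p = 0.129, and -0.40, adjusted p = 0.385).

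Smoc2 fell with BIO to 99, 123 and 91 in aggregates and to 52, 49 and 61 in dispersed cells, with no overlap with DMSO. The differences were -1.76 ± 0.28 (3.40-fold, limma adjusted p = 0.000126) and -3.33 ± 0.28 (10-fold, adjusted p = 1.26e-07). Postn read 397, 501 and 529 in BIO aggregates, lower than DMSO by 1.01 ± 0.30 (2.02-fold, adjusted p = 0.0171), and 433, 543 and 402 in dispersed BIO cells (-0.77 ± 0.30, adjusted p = 0.0671). The Postn call was lost without DMSO aggregate replicate 2 (adjusted p = 0.0595) or BIO aggregate replicate 1 (0.0693).

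Penk was higher with BIO than with DMSO, while still well below fresh cells. BIO aggregates read 318, 310 and 347 and dispersed BIO cells 319, 251 and 163, above all DMSO arrays of their format. The difference was 0.996 ± 0.327 in aggregates (1.99-fold, limma adjusted p = 0.0299) and 0.99 ± 0.33 in dispersed cells (1.99-fold, adjusted p = 0.0315). The call in aggregates was lost with any of the 6 arrays left out (adjusted p 0.0543 to 0.0934). The one in dispersed cells was lost without dispersed DMSO replicate 1 (0.0862) or 2 (0.0818) or dispersed BIO replicate 1 (0.139) or 2 (0.0863). With 3′ beta-actin as a covariate, Penk and Postn did not pass in aggregates (1.03, adjusted p = 0.335, and -0.89, adjusted p = 0.373, limma). Their changes stayed close to those without it. That signal differs between these groups, so its effect and that of BIO cannot be told apart.

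**Figure D3:**
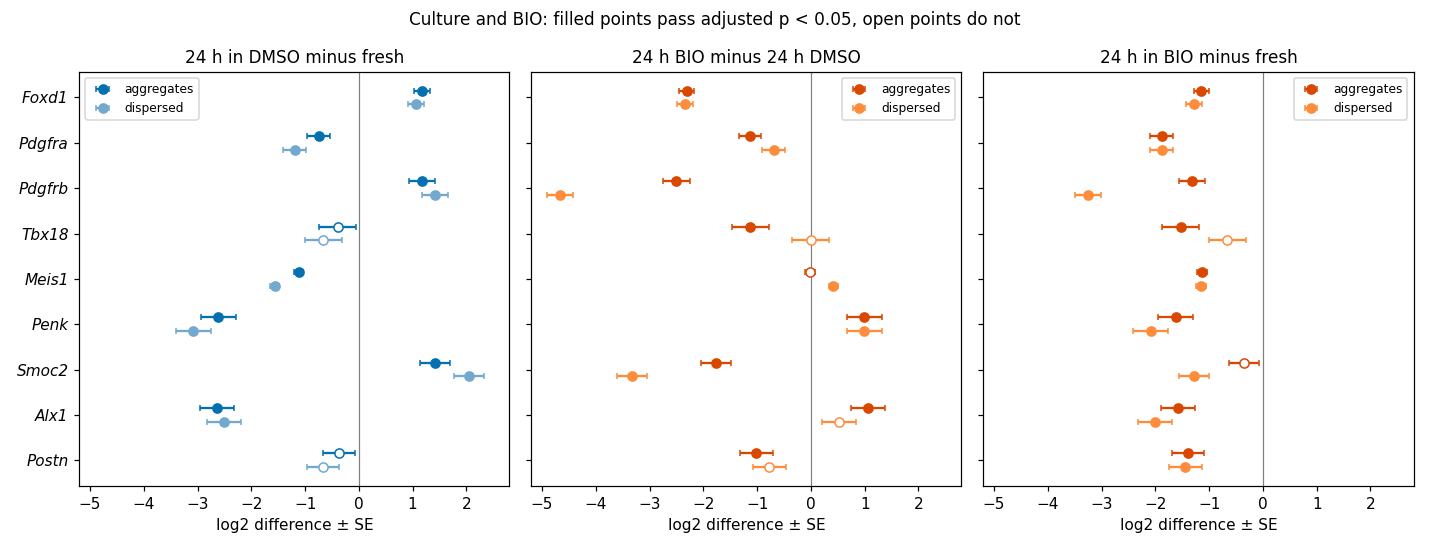
Log2 differences ± SE, from limma, for the 9 stroma genes in 3 comparisons at 24 h, in aggregates and in dispersed cells (n = 3 arrays per group). Filled points passed an adjusted p of 0.05 and open points did not. DMSO minus fresh lies on both sides of 0, while 24 h in BIO minus fresh lies below 0 for all 9 genes in both formats, with Smoc2 in aggregates and Tbx18 in dispersed cells not past the test.

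The wider stroma list fell with BIO as well. Of its 19 measured genes 14 were lower and 4 higher in aggregates, and 14 lower and 2 higher in dispersed cells. Over all genes 12.5% and 13.4% were lower. The medians of the list were -2.04 and -1.78, against 0.09 and 0.02 over all genes. Cxcl12 went from a mean of 8235 to 170.0 in aggregates (48.3-fold). Lox, which crosslinks collagen, fell 18.1-fold and the collagen chain Col5a2 12.1-fold. Cldn11 was at least 7.27-fold higher with BIO. Among ligands, Pdgfd fell 16.8-fold and Pdgfb 5.54-fold in aggregates, while Pdgfa was higher by 0.80 ± 0.10 (limma adjusted p = 1.52e-05). The mural and smooth muscle sum was 4617 to 4823 in BIO aggregates and 5574 to 5967 in dispersed BIO cells, below or near fresh cells. Against DMSO, 6 of its 11 genes were lower and 0 higher in aggregates, and 7 lower and 2 higher in dispersed cells. Over all genes 17.5% and 15.3% were higher. The part of this list in the stroma result was not tested.

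In DMSO, Meis1 was the 1 member of 9 that differed between aggregates and dispersed cells (0.45 ± 0.09 higher in aggregates, limma adjusted p = 0.0149), where 2.62% of all genes differed. That call was lost on the scale as deposited (0.39, adjusted p = 0.0521), on the mean of its probe sets (0.11, adjusted p = 0.749), and without dispersed DMSO replicate 1 (0.0722) or 2 (0.0575) or DMSO aggregate replicate 3 (0.0633). It also holds for the brightest Meis1 probe set alone. On 1443260_at DMSO aggregates were lower, at 196 to 269 against 327 to 357 in dispersed DMSO cells. The direction of Meis1 between formats in DMSO is therefore not settled. In BIO, 2 members were higher in aggregates, where 17.2% of all genes differed. Pdgfrb was 3.79-fold higher (1.92 ± 0.24, adjusted p = 0.000137) and Smoc2 1.91-fold higher (0.93 ± 0.28, adjusted p = 0.0317). Smoc2 did not pass on the scale as deposited (0.74, adjusted p = 0.111) nor, with 1 array left out, in 5 of 6 cases (adjusted p 0.0506 to 0.114). With 3′ beta-actin as a covariate neither passed (adjusted p = 0.0651 for Pdgfrb and 0.926 for Smoc2).

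The effect of BIO itself differed between formats for 1 member, Pdgfrb, where 1.57% of all genes did. The interaction was 2.16 ± 0.34 on the log2 scale (limma adjusted p = 0.00385), the fall being smaller in aggregates. It had the same sign on the second Pdgfrb probe set and did not pass there (1.40, adjusted p = 0.262). With 3′ beta-actin as a covariate it was 1.83 and did not pass (adjusted p = 0.0686). Smoc2 had an interaction of 1.56 ± 0.39 (adjusted p = 0.0629), which passed without DMSO aggregate replicate 3 (1.78, adjusted p = 0.0377).

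Against fresh cells, the stroma genes were low after a day in BIO. In aggregates 8 members were lower and 1 did not pass, where 33.7% of all genes changed (11.8% lower). In dispersed cells 8 were also lower, where 25.9% changed (13.3% lower). Medians of the members were -1.39 and -1.44, against 0.18 and -0.00 over all genes. Foxd1 was 2.21-fold lower in aggregates (-1.14 ± 0.15, limma adjusted p = 2.08e-05) and 2.43-fold lower in dispersed cells (-1.28 ± 0.15, adjusted p = 6.21e-06). Pdgfra was 3.68-fold and 3.69-fold lower on its brightest probe set, while its second probe set differed by 0.12 and 0.09 and did not pass. Pdgfrb was 2.51-fold lower in aggregates and 9.5-fold lower in dispersed cells. Smoc2 in aggregates (-0.35 ± 0.28, adjusted p = 0.357) and Tbx18 in dispersed cells (-0.67 ± 0.34, adjusted p = 0.184) did not pass. Without fresh replicate 2, the lowest fresh array for Smoc2, Smoc2 passed in aggregates too (-0.77, adjusted p = 0.0125).

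On the second day, most stroma genes were higher after withdrawal of BIO than with BIO kept. At 48 h 7 members were higher and 1 was lower after withdrawal, and 1 did not pass, where 20.4% of all genes differed (9.29% higher). The median member differed by 1.08, against -0.06 over all genes. Of the 8 calls, those of Foxd1, Pdgfra, Pdgfrb and Meis1 held with each array left out in turn, and those of Tbx18, Penk, Alx1 and Postn did not. The calls of Tbx18, Penk, Alx1 and Postn were also lost with the Gapdh ratio as a covariate (adjusted p 0.178 to 0.323, limma). That ratio had a mean of 10.9 after withdrawal and 7.87 with BIO kept.

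Pdgfrb moved the furthest. It read 1424, 1827 and 2730 after withdrawal and 145, 283 and 173 with BIO kept, 9.95-fold apart (3.31 ± 0.24, limma adjusted p = 6.09e-08) with no overlap. After withdrawal it was 7.38-fold higher than in BIO aggregates at 24 h (2.88 ± 0.24, adjusted p = 3.32e-07) and 2.95-fold higher than in fresh cells (1.56 ± 0.24, adjusted p = 0.000158). With BIO kept it did not pass against 24 h (-0.43 ± 0.24, adjusted p = 0.245), except without BIO kept replicate 2 (-0.71, adjusted p = 0.0449).

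Pdgfra read 575, 899 and 658 after withdrawal against 261, 283 and 233 with BIO kept, 2.70-fold apart (1.43 ± 0.21, limma adjusted p = 0.000107). Its second probe set differed in the same direction, 2.21-fold (adjusted p = 0.000242). Against BIO aggregates at 24 h the brightest probe set was 2.37-fold higher after withdrawal (adjusted p = 0.000443). Against fresh cells it was 1.55-fold lower (adjusted p = 0.0383), and the second probe set was 1.99-fold higher (adjusted p = 0.000744).

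Meis1 was back in the range of the fresh arrays after withdrawal. It read 1529, 1480 and 1516 after withdrawal and 621, 551 and 591 with BIO kept. The difference was 1.36 ± 0.09 (2.57-fold, limma adjusted p = 1.48e-08), and that from fresh cells was -0.06 ± 0.09 (adjusted p = 0.704). It was 2.11-fold higher than in BIO aggregates at 24 h (1.08 ± 0.09, adjusted p = 2.41e-07). Between the 48 h groups the 1443260_at probe set did not pass (0.58, adjusted p = 0.0621 over all probe sets, limma), and 1459423_at did (0.87, adjusted p = 0.0355). The 1443260_at probe set was 2.64-fold higher than at 24 h as well, but it was also 1.76-fold higher at 48 h with BIO kept, where the brightest probe set was 1.22-fold lower.

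Foxd1 was below its fresh level in both 48 h groups. It read 1299, 1183 and 896 after withdrawal, overlapping BIO aggregates at 24 h (0.23 ± 0.15, limma adjusted p = 0.288) and 1.89-fold below fresh cells (adjusted p = 0.000199). With BIO kept it read 337, 448 and 307, a further 2.65-fold below 24 h (-1.40 ± 0.15, adjusted p = 4.34e-06) and 5.84-fold below fresh cells. At 48 h the groups were 3.09-fold apart (1.63 ± 0.15, adjusted p = 5.59e-07) and did not overlap.

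Smoc2 did not pass between the 48 h groups. It read 266, 225 and 262 after withdrawal and 198, 227 and 260 with BIO kept, which overlapped (0.14 ± 0.28, limma adjusted p = 0.786). Both groups were above BIO aggregates at 24 h, by 2.40-fold (adjusted p = 0.00329) and 2.18-fold (adjusted p = 0.00844). Against fresh cells they were 1.88-fold (adjusted p = 0.0238) and 1.70-fold higher (adjusted p = 0.044). Without fresh replicate 2 neither passed (0.49, adjusted p = 0.117, and 0.35, adjusted p = 0.245), and with BIO kept the difference did not pass on the scale as deposited (0.58, adjusted p = 0.141).

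Penk had the opposite sign to the other members that passed. It read 90, 138 and 302 after withdrawal and 420, 417 and 269 with BIO kept, so the groups overlapped, and the difference of -1.21 ± 0.33 passed (2.31-fold, limma adjusted p = 0.0143). The call was lost without withdrawn replicate 1 or 2 or BIO kept replicate 1 or 2 (adjusted p 0.0523 to 0.0801). Postn read 637, 576 and 251 against 237, 280 and 145 (1.08 ± 0.30, 2.12-fold, adjusted p = 0.0166), also overlapping. It was lost without withdrawn replicate 1 (0.0885) or 2 (0.0774) or BIO kept replicate 3 (0.0877). Postn after withdrawal did not pass against BIO aggregates at 24 h (-0.06 ± 0.30, limma adjusted p = 0.9).

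Alx1 read 49, 70 and 91 after withdrawal and 17, 39 and 50 with BIO kept, where the mean lay below background. The difference was 1.07 ± 0.32 (at least 1.53-fold, limma adjusted p = 0.024), with overlap, and was lost without withdrawn replicate 2 (0.0639) or 3 (0.104) or BIO kept replicate 1 (0.111). Against BIO aggregates at 24 h, Alx1 after withdrawal did not pass (-0.24 ± 0.32, adjusted p = 0.62). With BIO kept it was at least 1.81-fold lower than at 24 h (adjusted p = 0.00694), though not with 3′ beta-actin as a covariate (adjusted p = 0.767). Tbx18 read 189, 199 and 168 against 92, 95 and 86, with no overlap (1.02 ± 0.34, 2.02-fold, adjusted p = 0.0475), and that call was lost with any of the 6 arrays left out (adjusted p 0.0727 to 0.121). After withdrawal Tbx18 was 2.56-fold higher than in BIO aggregates at 24 h (limma adjusted p = 0.00862). On the mean of its probe sets that rise did not pass (0.35, adjusted p = 0.638).

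**Figure D4:**
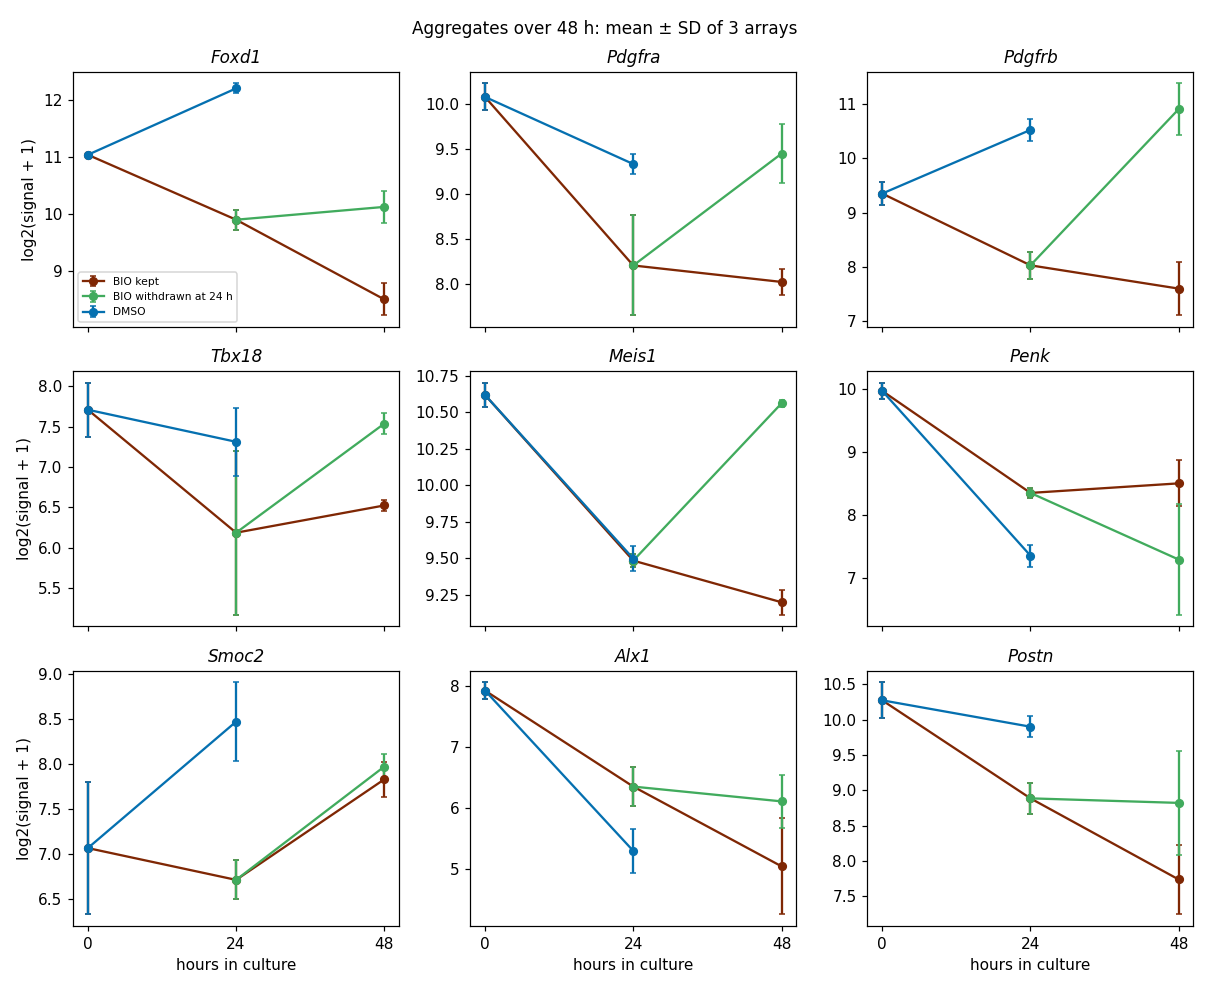
Levels of the 9 stroma genes in aggregates over 48 h as mean ± SD of log2(signal + 1) over 3 arrays, each panel on its own axis. Lines join fresh cells to 24 h in DMSO, to BIO kept for 48 h, and from BIO at 24 h to withdrawal until 48 h; the groups are separate samples. Pdgfra, Pdgfrb, Tbx18, Meis1 and Smoc2 were higher after withdrawal than at 24 h, whereas Foxd1 differed from its 24 h level by 0.23. Smoc2 was at about the same level in both 48 h groups.

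Against fresh cells, 2 members were higher and 5 lower after withdrawal, where 25.3% of all genes changed, and 1 was higher and 8 lower with BIO kept, where 33.4% changed. Against BIO aggregates at 24 h, 5 were higher and 1 lower after withdrawal, where 24.9% changed, and 1 was higher and 4 lower with BIO kept, where 20.8% changed. These comparisons share arrays with each other. Postn fell further with BIO kept (2.22-fold from 24 h, limma adjusted p = 0.0119, and 5.80-fold from fresh cells, adjusted p = 6.3e-06), and without BIO kept replicate 3 its fall from 24 h did not pass (-0.87, adjusted p = 0.0618).

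In the wider stroma list 9 of 19 genes were higher and 2 lower after withdrawal than with BIO kept. Over all genes 9.29% were higher and 11.1% lower. Col3a1, a fibrillar collagen chain, was 8.58-fold higher (3.10 ± 0.10, limma adjusted p = 5.65e-12), Mgp 8.38-fold and Col5a2 8.29-fold. Ntn1, the guidance cue netrin-1, was at least 5.29-fold higher. Of the 8 genes in the list of PDGF ligands and related receptors, 1 was higher, 4 were lower and 3 did not pass. The median of that list was -0.36, against -0.06 over all genes. Pdgfd was at least 7.05-fold higher and Pdgfa lower by 1.11 ± 0.10. The mural and smooth muscle sum was 14820 to 17430 after withdrawal against 4144 to 4860 with BIO kept, and Tagln was 11.7-fold higher. Of the 11 mural and smooth muscle genes 8 were higher and 1 lower. As before, the part of that list in the stroma result was not tested.

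Over the 7 groups the members fell into different orders. Foxd1 was highest in DMSO aggregates and dispersed DMSO cells, which overlapped, then fresh cells, then the withdrawn group and both BIO groups at 24 h, each overlapping the next, and lowest with BIO kept. Pdgfrb was highest after withdrawal, overlapping dispersed DMSO cells and these in turn DMSO aggregates, and lowest in dispersed BIO cells. Pdgfra, Tbx18, Meis1, Penk, Alx1 and Postn were highest in fresh cells, with Tbx18 and Meis1 overlapping the withdrawn group. For Pdgfra this holds on its brightest probe set, while 1438946_at was highest after withdrawal (mean 253 against 125 in fresh cells) and above fresh cells in both DMSO groups. The Meis1 probe set 1459423_at was also highest after withdrawal (mean 219 against 152 in fresh cells), with overlap. The 5 genes whose 7 group means were most like those of Foxd1, among 14180 compared, were Fchsd1 (Pearson r = 0.9934), Npas3 (0.9850), Lrrc72 (0.9843), Abca5 (0.9835) and Mbnl3 (0.9833). For Pdgfra they were Kank4 (0.9906), Bicc1 (0.9852), Unc5c (0.9804), Ift52 (0.9790) and Ppp1r3b (0.9640). Lrrc72 had group means of 30.8 to 50.4, around the background of 41.8, and Ift52 varied only from 692 to 772 with SDs of up to 259, so the places of both rest on values near background or within the spread of the arrays. Fchsd1 had group means of 78.5 to 140.5 with SDs of 21.5 to 53.7, so its first place also rests on differences near that spread. Among the members themselves r with Foxd1 ran from -0.322 for Penk to 0.873 for Postn, over the same 7 means. All these correlations describe group means from 1 set of arrays and carry no test.

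Relatives of the members changed no more often than all genes in DMSO aggregates, and those that changed were lower there. Of 17 measured in a list of 19 (other Foxd, Tbx, Meis, Pbx and Alx factors, opioid precursors, and relatives of Smoc2 and Postn), 5 fell and 12 did not pass by limma, where 32.9% of all genes changed. Falls made up 14.5% of all genes. The median of the relatives was -0.32 against 0.10 over all genes. Tbx2, a T-box repressor, fell 2.89-fold in DMSO aggregates and was 2.32-fold higher with BIO than with DMSO. Sparcl1, a matricellular protein, fell 2.72-fold and was 3.53-fold higher with BIO. Foxd4 was at least 3.64-fold higher in BIO aggregates than in DMSO aggregates, with a DMSO mean below background. Of the 17 relatives, 6 were higher, 3 lower and 8 not past the test in BIO against DMSO aggregates. Over all genes 17.5% were higher and 12.5% lower there. The median of the relatives was 0.03, against 0.09 over all genes.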

How the data were processed

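Total RNA from 21 samples went through a 2-round amplification kit and was labelled with biotin, per the labels' protocols. The deposited values are linear signal intensities for 45101 probe sets, made by the authors with a scaling not given in the sources used here. They were quantile normalized as log2(value + 1). The 34945 probe sets with one gene symbol were kept, with symbols updated from RefSeq, and a gene's brightest probe set on average stood for it. Background is the signal of 41.8 that 95% of 27 bacterial control probe sets did not exceed. Printed signals are normalized.

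A limma 3.58.1 model (R 4.3.3) held a mean for each group over all 21 arrays, with 14 residual and 1.625 prior degrees of freedom. The threshold was 0.05 on Benjamini-Hochberg adjusted p-values, and the code was tested on simulated data. With 3 arrays per group, their number limits the precision. The 9 members and all gene lists were chosen with earlier results of these data known, so counts over a list are descriptions. Named genes are the members, the up to 4 largest changes past the threshold in each other list, the 5 genes most like Foxd1 and Pdgfra, and Six2 and Axin2.

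Alternatives changed the scaling (as deposited, median centring), the probe sets (their mean, each tested alone, a filter on dim genes), the fit (arrays compared alone, weights per array, variance trend and robust prior, replicate block, control probe set covariates), the pseudocount (16) and the arrays (each left out). Figures used matplotlib 3.10.9 in Python 3.11.15.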

Additional observations from a re-analysis of the deposited data

Results flagged for a closer look

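The effect of BIO on Pdgfrb differed between aggregates and dispersed cells in a test of that difference itself. The interaction was 2.16 ± 0.34 on the log2 scale (adjusted p = 0.00385, limma, n = 3 arrays per group). With BIO, Pdgfrb fell by 2.50 in aggregates and fell by 4.66 in dispersed cells on the log2 scale, and all arrays of each BIO group lay below all arrays of the DMSO group of the same format. With the 3′ beta-actin control, dimmest in the BIO aggregates, as a covariate the interaction was 1.83 and did not pass (adjusted p = 0.0686, limma), nor did it on the second Pdgfrb probe set (1.40, adjusted p = 0.262). The mean signal in dispersed BIO cells, 68.0, was close to the background of 41.8.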

How the results depend on the processing

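Of 83 member results past the threshold, 44 kept their call and direction under each alternative other than leaving out an array. Counts of changed members (of 9) moved by more than 1.5 times, or to 0, in these cases. On the mean of all probe sets they were 5 for BIO in aggregates, 0 and 1 for aggregates against dispersed cells in DMSO and in BIO, 5 for BIO aggregates against fresh cells, 3 for BIO kept against 24 h and 4 for withdrawal against fresh cells. Among smaller moves there, BIO in dispersed cells and withdrawal against 24 h went from 6 to 4 and BIO kept against fresh cells from 9 to 7. Fitted to only the arrays compared, they were 2 for the interaction, 0 for format in DMSO, 5 for withdrawal against BIO kept, 3 for withdrawal against 24 h, 2 for BIO kept against 24 h and 4 for withdrawal against fresh cells. With the 3′ beta-actin covariate they were 5 for BIO in aggregates, 0 for the interaction, 0 for format in BIO and 2 for BIO kept against 24 h. With the Gapdh 3′ over 5′ covariate they were 1 for format in BIO, 4 for withdrawal against BIO kept and 1 for BIO kept against 24 h. On the deposited scaling they were 0 and 1 for format in DMSO and in BIO. Array weights and the variance trend with a robust prior each gave 2 for the interaction. The cause was not tested.

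Results that turned their sign were Pdgfra in DMSO aggregates against fresh cells (0.03), Pdgfra after withdrawal against fresh cells (0.44) and Meis1 with BIO kept against 24 h (0.11), on the mean of all probe sets, and Alx1 for BIO in aggregates (-0.25) with the 3′ beta-actin covariate.

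With each array left out in turn, the count was 7 to 7 for DMSO culture in both formats, 4 to 7 for BIO in aggregates and 4 to 6 in dispersed cells. It was 1 to 2 for the interaction, 0 to 1 and 1 to 2 for format in DMSO and in BIO, and 8 to 9 and 8 to 8 for BIO aggregates and dispersed BIO cells against fresh cells. For the second day it was 4 to 6 for withdrawal against BIO kept, 5 to 6 and 3 to 5 for withdrawal and BIO kept against 24 h, and 5 to 7 and 8 to 9 for them against fresh cells.

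The replicate block changed no member call (126 of 126 results), with 7 members changed in DMSO aggregates as without it, and 319 against 477 of all genes for format in DMSO. Residuals of same-numbered arrays had a median correlation of -0.024 (-0.388 to 0.264), and 2 of 21 arrays correlated best with their own number, so the numbers are not treated as pairs.

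Over all genes, 70.0% of calls were higher in aggregates than in dispersed cells in DMSO, against 39.0% on the deposited scaling and 86.3% with median centring, and in BIO 73.0% against 48.5% and 84.7%. Alx1, the second probe sets of Pdgfrb, Smoc2, Tbx18 and Alx1, and Pdgfrb in dispersed BIO cells lay near background, which limits what their folds can show.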
